A study of Mus musculus with 6 samples.

Results

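The genes of cellular iron import, storage and export were examined in HL-1 cells, a cardiomyocyte line, through 10 genes taken by symbol from the platform annotation: Slc40a1, Tfrc, Fth1, Ftl1, Slc11a2, Aco1, Ireb2, Hmox1, Cp and Steap3. The annotation assigned 30 of the 45037 probe sets to them. Of these, 27 named 1 gene each, while the 3 assigned to Ftl1 also named its relative Ftl1-ps2, so no value here belongs to Ftl1 alone. The line descends from an atrial tumour of a mouse in which the atrial natriuretic factor promoter drove a viral large T antigen, and it is 1 immortalised line of dividing cells. The labels give 2 conditions, both applied to confluent cells for 8 hours: 1% oxygen (hypoxia, 3 arrays) and 21% oxygen (normoxia, 3 arrays). All 6 arrays were used. The labels do not say that the 3 arrays of a condition came from separate cultures, so every p-value measures the spread between these arrays, which may be technical.

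Iron enters most cells as transferrin-bound iron through the transferrin receptor, is reduced in the endosome by a STEAP reductase, and crosses into the cytosol through DMT1. Surplus iron is stored inside ferritin shells, and ferroportin carries it out of the cell with the help of a copper ferroxidase. Iron regulatory proteins bind hairpins called iron-responsive elements in the messengers of several of these genes. By that route they block the translation of ferritin and stabilise the messenger of the transferrin receptor, so that transcript levels alone do not give the protein levels. In the heart, iron supplies myoglobin, the respiratory chain and iron-sulfur enzymes.

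Of these genes, the exporter Slc40a1 fell in hypoxia, with every hypoxia array below every normoxia array, and it was the only member that passed the test. Signals of Tfrc, Hmox1 and the 3 brightest probe sets of Cp were higher on every hypoxia array than on every normoxia array, but none of them passed. Both ferritins, both iron regulatory proteins and Slc11a2 had small differences on their brightest probe sets. Changes were tested with limma on log2 signals over the 22518 probe sets whose mean log2 signal exceeded the array-wide median (a geometric mean of 14.1), and were called at a Benjamini-Hochberg adjusted p under 0.05. Of the 30 probe sets, 26 exceeded that filter and 4 did not. The test called 1 of the 26, where it called 0.608% of all probe sets tested. With each gene represented by its brightest kept probe set that names it alone, 9 of the 10 genes were tested and 1 was called, against 0.75% of all 11332 genes. The 3 hypoxia arrays lay above the 3 normoxia arrays, without overlap, for 7 of the 26 (7.48% of all probe sets tested) and below them for 5 (9.06%). The other 14, and the 4 dim probe sets, overlapped. The 7 higher ones were the probe sets of Tfrc and Hmox1 and the 3 brightest of Cp. Probe sets of Tfrc and of Cp partly share a source sequence, so they are not independent. By the representative probe set of each gene, Tfrc, Hmox1 and Cp were higher without overlap (8.16% of all genes). Slc40a1 and Fth1 were lower (9.91% of all genes). Since the filter uses the mean of both conditions, these counts describe the 26 and are no test of the group.

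**Figure D1:**
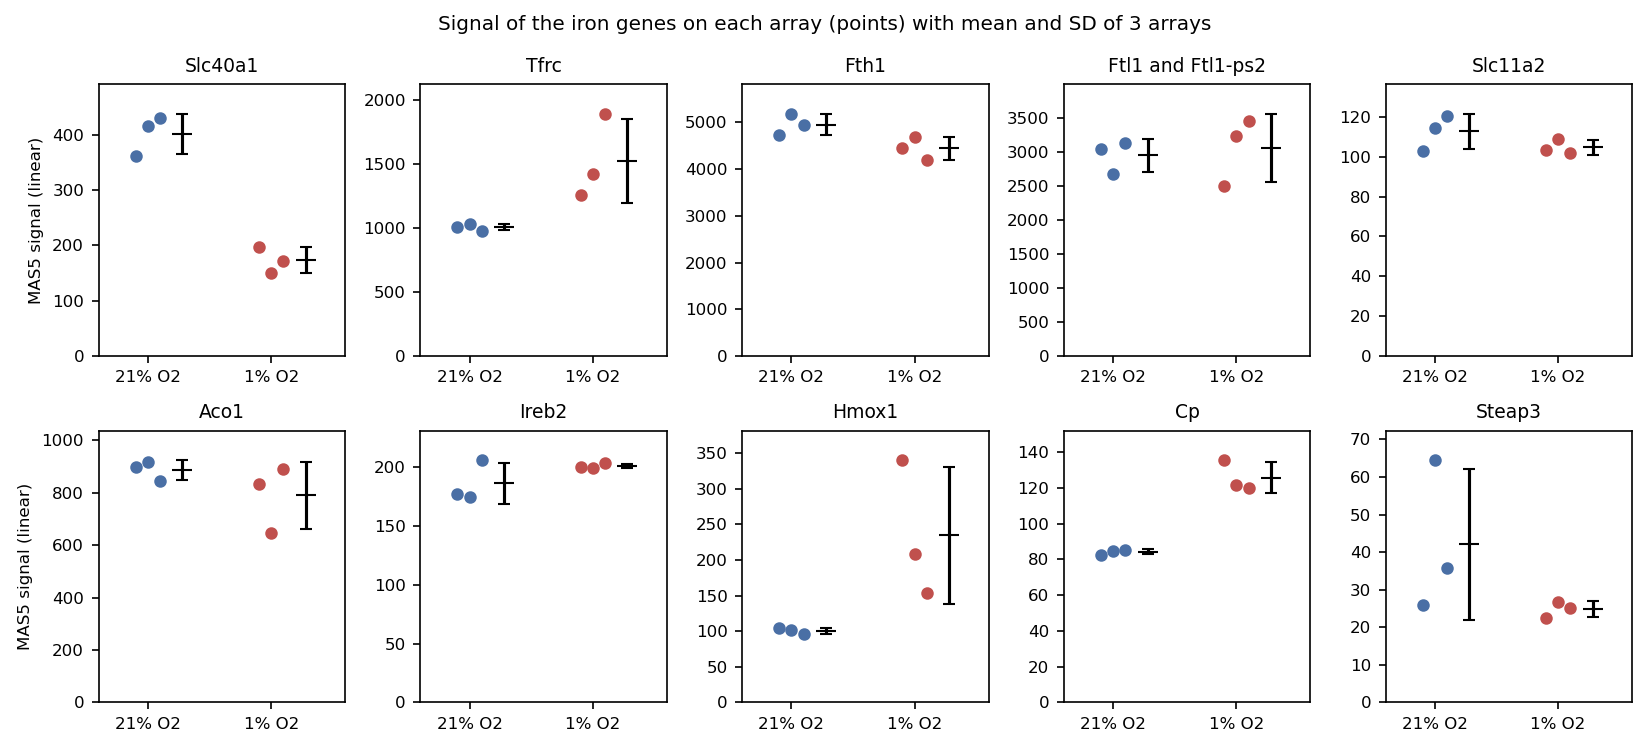
Signal of each iron gene on a linear scale (y axis, MAS5 signal) on the 3 arrays at 21% oxygen and the 3 at 1% oxygen; points are arrays, and the black bar gives the mean with the SD. Each panel shows the brightest probe set, which for Ftl1 is shared with Ftl1-ps2. The Slc40a1 points at 1% oxygen lie between 150.2 and 197, below the 361 to 429.7 at 21% oxygen, while Tfrc, Hmox1 and Cp lie higher at 1% oxygen.

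The arrays carried a transcript response to low oxygen. In a list of 10 genes known to respond to hypoxia, 8 passed the test and all 8 were higher, where 0.75% of all genes tested were called. The list was chosen with earlier results of these data known, so it describes the arrays and is no independent check. Slc2a1, a glucose transporter, rose by 2.08 on the log2 scale, the mitochondrial kinase Ak4 by 4.18 and Bnip3, a mitophagy receptor, by 2.87. All 10 listed cardiomyocyte markers were above the filter, and their signals summed to between 34376 and 36326 on the hypoxia arrays and between 35977 and 38017 on the normoxia arrays. Other marker lists cover cells with particular roles in iron handling or present in the heart. Summed signals of 8 macrophage and leukocyte markers ran from 122.9 to 156 in hypoxia and from 85.3 to 140.2 in normoxia, with 4 above the filter. Those of 4 measured erythroid markers ran from 109 to 134 and from 80.1 to 105, with 2 above the filter. For 6 endothelial markers, 2 above the filter, the ranges were 157 to 236 and 173 to 224, and for 6 fibroblast markers, 3 above it, they were 118 to 231 and 135 to 140.0. The erythroid sums did not overlap between conditions. Some single markers differed more than the sums. Of the cardiomyocyte markers, Nppa was higher on every hypoxia array (log2 fold change 0.76, adjusted p = 0.24). Tnni3 (-0.37, adjusted p = 0.113) and Myl4 (-0.12, adjusted p = 0.639) were lower on every hypoxia array, and the others overlapped. The macrophage marker Cd68 was higher on every hypoxia array, at 44.0 ± 4.97 against 20.2 ± 4.56 (log2 fold change 1.14, adjusted p = 0.157), as was the erythroid marker Ermap, at 33.0 ± 7.17 against 14.5 ± 3.35 (1.18, adjusted p = 0.234). Cd163, another macrophage marker, was below the filter, at 10.4 ± 1.21 against 1.07 ± 0.64. The other macrophage and leukocyte markers above the filter, Csf1r, Adgre1 and Fcgr1, overlapped, with log2 fold changes of -0.13, -0.22 and -0.31. Epor, the brightest erythroid marker, also overlapped, at 0.05. Of all genes tested, 8.16% were higher in hypoxia without overlap and 9.91% lower. In these lists 0 markers passed the test and 0 were at a signal of 0 on all arrays; any part of such cells in the results was not tested.

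Slc40a1 encodes ferroportin, the iron exporter of animal cells. Its brighter probe set, 1417061_at, had signals of 361, 415 and 429.7 on the normoxia arrays and of 197, 150.2 and 172 on the hypoxia arrays. The group means were 402 ± 36.3 and 173 ± 23.2 (SD, n = 3 arrays, as throughout). Every hypoxia array was below every normoxia array, by a gap far wider than the range within either condition. The log2 difference, hypoxia minus normoxia (the log2 fold change), was -1.22 (SE 0.16, 95% interval -1.58 to -0.86, adjusted p = 0.00894), which places the normoxic signal 2.33-fold above the hypoxic one. The second probe set, 1448566_at, had signals of 208, 210.2 and 252 in normoxia and of 122, 69.1 and 105 in hypoxia. Its arrays did not overlap between conditions either, though by a narrower gap, and the log2 difference was nearly the same, -1.21 (SE 0.22). This probe set did not pass (adjusted p = 0.0521, range over the alternatives 0.0182 to 0.268). Both probe sets were designed from the same source sequence, so they are not independent measurements of the messenger. The mean of both gave a log2 difference of -1.22 (adjusted p = 0.0181). The call of 1417061_at held in 15 of 17 alternatives, with log2 differences from -1.32 to -1.11. It was lost without normoxia replicate 3 (adjusted p = 0.077) and with a variance model that ignores the dependence on signal (adjusted p = 0.0899); adjusted p ran from 0.00236 to 0.0899 in all.

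The genes whose array-by-array pattern was most like that of Slc40a1 were found by the root mean square difference of log2 signals over the 6 arrays, after centring each gene on its own mean. Ednrb, an endothelin receptor, was nearest at 0.105, followed by Tmem182, a muscle membrane protein, at 0.144 and the glutamate transporter Slc1a3 at 0.158. The median over all genes was 0.656. Ednrb fell by 1.10 on the log2 scale (adjusted p = 0.0303). Tmem182 had a log2 difference of -1.05 (adjusted p = 0.138) and Slc1a3 one of -1.08 (adjusted p = 0.0534), and neither passed. The measure takes in the difference between the conditions, so that genes differing by a like amount come out as near.

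Cp encodes ceruloplasmin, a copper ferroxidase that oxidises the iron released by ferroportin so that transferrin can bind it. It had 8 probe sets, of which 7 exceeded the filter, and 6 of the 8 came from 1 source sequence. The brightest, 1417494_a_at, had signals of 82.5, 84.9 and 85.4 in normoxia and of 136, 122 and 119.8 in hypoxia. The normoxia arrays were nearly equal and all below the hypoxia arrays. Its log2 difference was 0.57 (SE 0.16, 95% interval 0.21 to 0.94, adjusted p = 0.213). The next probe sets, 1417495_x_at and 1448734_at, also did not overlap between conditions, with log2 differences of 0.73 (adjusted p = 0.293) and 0.61 (adjusted p = 0.349). At 1417495_x_at the hypoxic signals were 84.5, 70.6 and 76.3 and the normoxic ones 49.4, 58.8 and 34.2. The dimmer probe sets were less separated. Their log2 differences were 0.39 at 1417496_at, 0.28 at 1448735_at, 0.11 at 1455393_at and -0.10 at 1417497_at, all with overlapping arrays and adjusted p of at least 0.627. The last of these changed sign under several alternatives. The mean over the 7 kept probe sets was 0.37 (SE 0.25, adjusted p = 0.582), so Cp passed neither by its brightest probe set nor by the mean. The probe set below the filter, 1441326_at, had signals of 2.40, 0.9 and 1.2 in normoxia and of 4.8, 6.30 and 0.7 in hypoxia, which overlapped.

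Tfrc encodes the transferrin receptor, the main port of iron entry. Its 3 probe sets were all higher in hypoxia without overlap, and none passed the test. The brightest, 1452661_at, had signals of 1010.8, 1033 and 981 in normoxia and of 1260.4, 1426 and 1896 in hypoxia. The normoxia arrays lay close together, while hypoxia replicate 3 was well above the other hypoxia arrays. The log2 difference was 0.58 (SE 0.15, 95% interval 0.24 to 0.91, adjusted p = 0.174). Without hypoxia replicate 3 it was 0.41 (adjusted p = 0.279, range over the alternatives 0.0889 to 0.528). At 1422966_a_at the signals were 310.1, 305 and 289 in normoxia and 420.4, 489.6 and 578 in hypoxia, with the same array highest. That gave a log2 difference of 0.71 (SE 0.15, adjusted p = 0.0911), which passed only with array weights among the alternatives (adjusted p = 0.0404, range 0.0404 to 0.385). At 1422967_a_at, the dimmest, the signals were 119, 55.7 and 102 in normoxia and 150.3, 145 and 249.8 in hypoxia. There the log2 difference was 1.00, with a wide interval of 0.31 to 1.69 (adjusted p = 0.259). The mean of the 3 probe sets gave 0.76 (SE 0.18, adjusted p = 0.0959); 2 of them share a source sequence.

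Hypoxia-inducible factors bind a short core that reads ACGTG or GCGTG, and promoters were searched for it. That of Tfrc is shown because all 3 of its probe sets were higher in hypoxia, although none passed, and because it held the most cores of the 7 members with a window. Whether the cores have any part in the signals was not tested. RefSeq promoter windows of GRCm38.p6, from 250 bases before to 50 bases after an annotated start, were given for 7 of the 10 genes. The set of windows used here held none for Slc40a1, Slc11a2 and Hmox1. Both strands were searched, and either core occurred in 43.8% of all 32851 windows (ACGTG in 19.6%, GCGTG in 32.4%). Tfrc has a pair of windows on chromosome 16, plus strand, for starts at 32608896 and 32609122, each with 3 matches, which 8.93% of all windows reach or exceed. As the windows overlap, these are 5 distinct places. Tfrc was picked for holding the most cores, so that share does not measure how unusual its count is. Of the 7 members with a window, 4 had a match, some of them having several windows. The 250 bases before the first start, chr16:32608646-32608895, held 2 matches on the opposite strand, 117 and 64 bases before the start, which are in capitals as CACGC.
Tfrc, before the first start: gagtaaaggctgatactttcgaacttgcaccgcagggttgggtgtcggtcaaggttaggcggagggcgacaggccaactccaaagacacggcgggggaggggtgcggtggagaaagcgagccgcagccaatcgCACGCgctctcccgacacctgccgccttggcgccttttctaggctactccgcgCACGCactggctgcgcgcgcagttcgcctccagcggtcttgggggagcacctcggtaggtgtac
The only ACGTG in the searched windows of the gene spans the first start and lies 228 bases before the second start, within chr16:32608882-32608911.
Tfrc, across the first start: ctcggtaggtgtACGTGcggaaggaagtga

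Single GCGTG matches on the opposite strand stood before a start of both ferritin genes, and are shown beside those of the import gene. The Fth1 match lies 50 bases before the second of its annotated starts, within chr19:9982584-9982613 on the plus strand. The Ftl1 match lies 47 bases before its start, within chr7:45459916-45459945 on the minus strand. Capitals again mark the core as it reads on the strand of the gene.
Fth1: gggtttgggcaaCACGCccacaggaagagg
Ftl1: ccgtctccgcctCACGCcaccgccgattgg
One of 4 windows of Steap3 also held a match, and the windows of Aco1, Ireb2 and Cp held none. A match is a run of letters and not a measured binding site, and a window without one says nothing about more distant sequence.

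**Figure D2:**
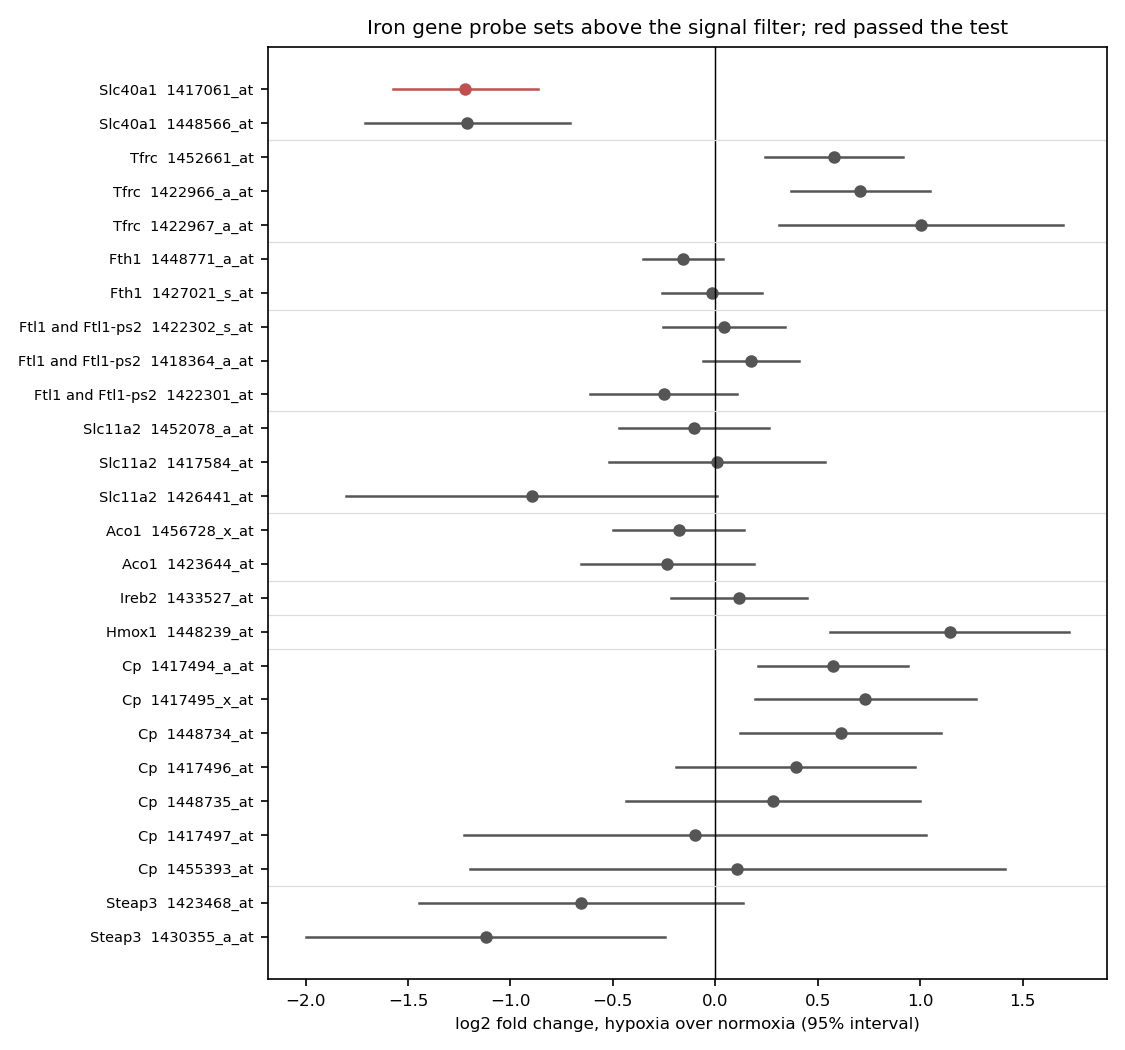
Log2 fold change of hypoxia over normoxia (x axis) with its 95% interval for the 26 probe sets of the iron genes above the filter, 3 arrays per condition. The interval of Slc40a1 1417061_at, in red, was the only one of a called probe set. The 3 Tfrc probe sets, Hmox1 and the 3 brightest Cp probe sets have intervals above 0. Slc40a1 1448566_at and Steap3 1430355_a_at have intervals below 0 but were not called. The intervals of both ferritins include 0.

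Steap3 encodes the endosomal reductase that converts transferrin-delivered iron to the ferrous form. All of its 3 probe sets were dim. At 1423468_at the normoxic signals were 25.9, 64.5 and 35.7 and the hypoxic ones 22.6, 26.7 and 25.2, with normoxia replicate 2 apart from the rest. The log2 difference was -0.66 (SE 0.35, adjusted p = 0.546), and -0.30 without that array. At 1430355_a_at the signals were 24.5, 44.1 and 29.9 in normoxia and 10.2, 19.7 and 15.6 in hypoxia. These arrays did not overlap, but the log2 difference of -1.12 had an interval from -2.0 to -0.25 and did not pass (adjusted p = 0.331). The third probe set, below the filter, ranged from 3.70 to 33.9 over the arrays.

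Slc11a2 encodes DMT1, the proton-coupled transporter that moves ferrous iron out of endosomes. It had 4 probe sets, 3 of them above the filter. The brightest, 1452078_a_at, had signals of 103 to 121 in normoxia and 102 to 109 in hypoxia, with a log2 difference of -0.10 (95% interval -0.47 to 0.26, adjusted p = 0.856). At 1417584_at it was 0.01 (adjusted p = 0.993). At the dim 1426441_at, signals were 28.6, 38.4 and 53.9 in normoxia and 25.0, 30.3 and 12.1 in hypoxia, a log2 difference of -0.90 with an interval from -1.80 to 0.01 (adjusted p = 0.463), and -0.50 without hypoxia replicate 3. The fourth was below the filter.

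Fth1 encodes the ferritin heavy chain, which carries the ferroxidase centre of the iron store. At 1448771_a_at the signals were 4723, 5190.5 and 4955 in normoxia and 4447, 4695.5 and 4192 in hypoxia, so that all hypoxia arrays were slightly lower. The log2 difference was -0.16 (SE 0.09, 95% interval -0.35 to 0.04, adjusted p = 0.557). At 1427021_s_at the signals were 4479, 3689 and 4202 in normoxia and 3662, 4115 and 4442 in hypoxia, with full overlap and a log2 difference of -0.02 (interval -0.26 to 0.23, adjusted p = 0.965). These intervals end well short of the fold change of Slc40a1.

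Ftl1 encodes the ferritin light chain, which helps the shell to nucleate its iron core. Its probe sets also match Ftl1-ps2, and one of them also microRNA genes of the Mir692 group. The brighter pair had mean signals of 3058 ± 502 in hypoxia against 2947 ± 239.6 in normoxia at 1422302_s_at, and of 2530.0 ± 130.1 against 2246 ± 207 at 1418364_a_at. Log2 fold changes were 0.04 (interval -0.25 to 0.34) and 0.17 (interval -0.06 to 0.41), with adjusted p = 0.931 and 0.588. The dim 1422301_at had signals of 116 to 138 in hypoxia and 146 to 166 in normoxia, which did not overlap, and a log2 difference of -0.25 (adjusted p = 0.61). The 3 probe sets thus did not share a direction.

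Aco1 and Ireb2 encode the iron regulatory proteins that bind iron-responsive elements; the product of Aco1 is also the cytosolic aconitase, while that of Ireb2 is degraded when iron is plentiful. At the brightest probe set of Aco1, 1456728_x_at, signals were 900.0, 916 and 844 in normoxia and 835, 645 and 891 in hypoxia. The arrays overlapped, and the log2 difference was -0.18 (interval -0.50 to 0.14, adjusted p = 0.684). At 1423644_at it was -0.23 (adjusted p = 0.689), and the third probe set was below the filter, between 9.10 and 14.0 on all arrays. The single probe set of Ireb2 had signals of 177, 175 and 206 in normoxia and of 199.9, 199 and 203 in hypoxia. Here the hypoxia arrays were nearly identical and lay within the normoxic range, with a log2 difference of 0.11 (interval -0.22 to 0.45, adjusted p = 0.813).

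Hmox1 encodes the inducible heme oxygenase, which opens the heme ring and releases its iron, carbon monoxide and biliverdin. Its single probe set had signals of 105, 101 and 95.9 in normoxia and of 340.3, 209 and 154 in hypoxia. All hypoxia arrays were higher, but they spread widely, and the SD was 95.6 in hypoxia against 4.48 in normoxia. The log2 difference was 1.14 (SE 0.26, 95% interval 0.56 to 1.73), a 2.21-fold difference that did not pass (adjusted p = 0.109). It fell to 0.84 without hypoxia replicate 1, the highest array (adjusted p = 0.292). It rose to 1.41 without hypoxia replicate 3, the lowest (adjusted p = 0.0268), and also passed with array weights (adjusted p = 0.0182, range over the alternatives 0.0182 to 0.411). The hypoxia array with the highest Hmox1 signal was the one with the lowest Tfrc signal at 1452661_at, and the reverse held too. The same was seen at 1422966_a_at, but at 1422967_a_at the lowest Tfrc signal was on hypoxia replicate 2. This inverse order rests on 3 arrays and was not tested.

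**Figure D3:**
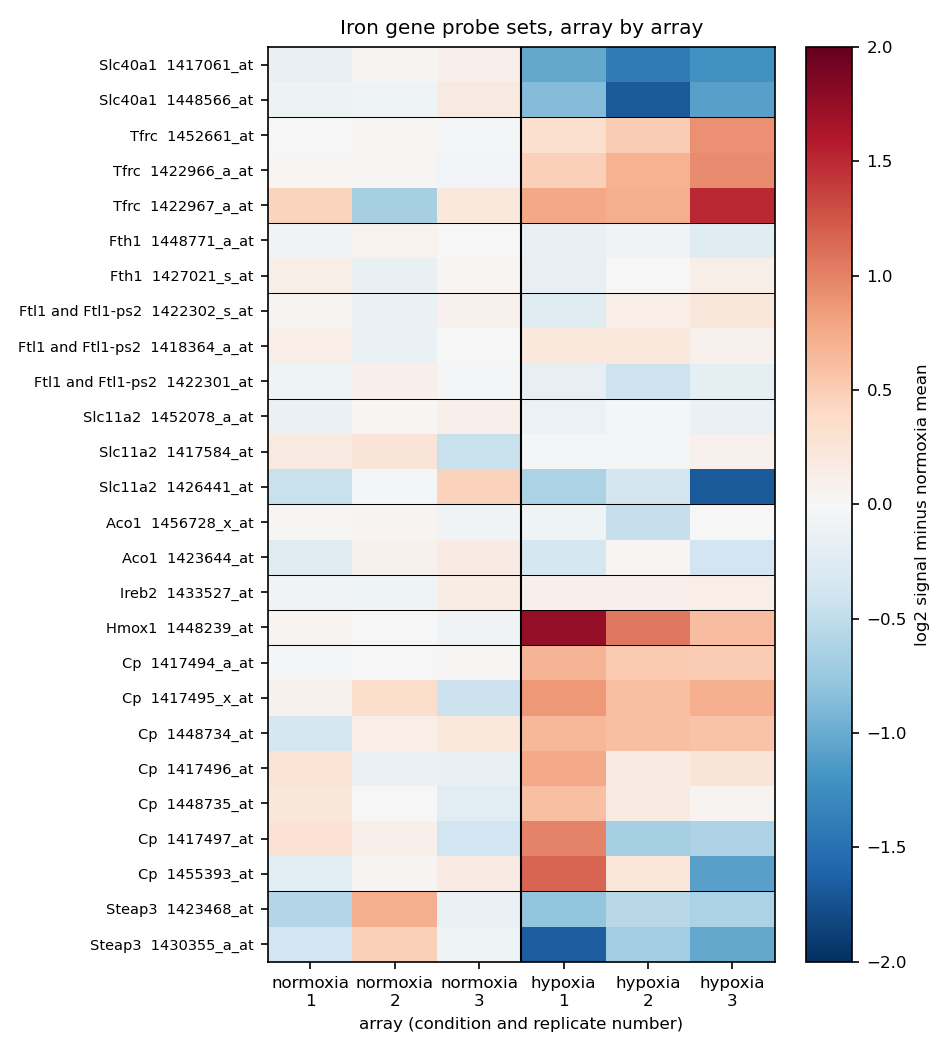
Log2 signal of each kept probe set of the iron genes on each array (columns: normoxia replicates 1 to 3, then hypoxia replicates 1 to 3), minus the mean of the 3 normoxia arrays; red is higher and blue lower, and rows are grouped by gene. Both Slc40a1 rows are blue on all hypoxia arrays, the 3 Tfrc rows are red and deepest on hypoxia replicate 3, and Hmox1 is deepest on hypoxia replicate 1.

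The scaling of the arrays left the signs of Slc40a1, Tfrc and Hmox1 and their side of the threshold as they were, but turned or shrank several small differences. Centring each array on its median moved the median log2 difference of all probe sets from -0.04 to 0.07. Slc40a1 1417061_at then had a log2 difference of -1.11 (adjusted p = 0.0205), Tfrc 1452661_at one of 0.69 (adjusted p = 0.0889) and Hmox1 one of 1.25 (adjusted p = 0.067). Fth1 1448771_a_at moved from -0.16 to -0.047 with median centring and to -0.28 with quantile normalization. Aco1 1456728_x_at moved from -0.18 to -0.068 with median centring. Signs turned with median centring for Fth1 1427021_s_at, Slc11a2 1452078_a_at and Cp 1417497_at, and with quantile normalization for Ftl1 with Ftl1-ps2 at 1422302_s_at. The differences that turned thus have no settled direction here. Fth1 1448771_a_at and Aco1 1456728_x_at kept their sign in all 17 alternatives and passed in 0 of them.

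A further 82 genes of iron and heme handling were listed by function, with earlier results of these data known. The array held 74 of them as single-gene probe sets and 65 were tested. With limma 0 passed, and 14 had an unadjusted p under 0.05, as had 1409 of all 11332 genes. Their median log2 difference was -0.13 against -0.04 for all genes, and 47 of the 65, or 72.3%, were below 0, against 55.6% of all genes. After median centring 33 of 65 were below 0, with 40.1% of all genes. With quantile normalization 47 of 65 were below 0 (52.4% of all genes), and with cyclic loess also 47 (52.2%). Without overlap between conditions, 13 of the 65 were lower in hypoxia, or 20% (9.91% of all genes), and 3 were higher, or 4.62% (8.16% of all genes). These shares describe the list and were not tested.

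Among 14 tested genes of iron uptake, release and hormone control, 0 passed and 4 had an unadjusted p under 0.05; 11 were below 0 (median log2 difference -0.36). Hjv, hemojuvelin, a co-receptor that raises hepcidin, had the smallest adjusted p, with a log2 difference of -0.78 (81.5 ± 11.5 in hypoxia against 141 ± 28.8, adjusted p = 0.176). The brightest was Snx3, a sorting nexin that recycles the transferrin receptor, at 0.19 (adjusted p = 0.582). Named after their values were seen, Hamp, the ferroportin-binding hormone hepcidin, had signals of 343, 342 and 360.4 in normoxia and of 189, 349 and 223 in hypoxia. Of 5 measured hepatocyte markers, Hamp was the 1 above the filter. The arrays overlapped through hypoxia replicate 2 (log2 difference -0.51, adjusted p = 0.43). Hfe, a partner of the transferrin receptors and also named after its values were seen, had the lowest log2 difference of the list, -1.40 (adjusted p = 0.596). It rested on 1 array, hypoxia replicate 3, with a signal of 2.20, against 24.8 to 33.9 on the other arrays. Of the 14, 2 were lower in hypoxia without overlap, or 14.3% (9.91% of all genes), and 2 were higher, also 14.3% (8.16% of all genes). The lower ones were Hjv and Mon1a, a vesicle trafficking protein named after its values were seen, at -0.62 (adjusted p = 0.426). For Mon1a the separation was slight, with a highest hypoxia signal of 77.9 and a lowest normoxia signal of 78. Tfr2, a receptor that senses transferrin-bound iron and likewise named after its values were seen, was higher on all hypoxia arrays, at low signals of 43.4 ± 6.17 against 22.2 ± 2.78 (log2 difference 0.96, adjusted p = 0.212). Slc39a14, also named after its values were seen, was the other higher one, at 0.37 (adjusted p = 0.526).

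In the list of iron chaperones, ferritin turnover and mitochondrial iron, 10 of 11 tested genes were below 0 (median -0.18). Of these 11, 0 passed and 5 had an unadjusted p under 0.05. With quantile normalization and with cyclic loess 10 of 11 were below 0. After median centring it was 7 of 11, where 40.1% of all genes were below 0. As for non-overlap, 5 of the 11 (45.5%) were lower in hypoxia, against 9.91% of all genes, and 1409 of all 11332 genes had an unadjusted p under 0.05; the list was not tested against other genes. Fbxl5, the iron-sensing ubiquitin ligase subunit that degrades the product of Ireb2, had signals of 218, 297 and 238.5 in normoxia and of 160.0, 154 and 133 in hypoxia. Its log2 difference was -0.75 (SE 0.17, adjusted p = 0.117), and it passed only with array weights (adjusted p = 0.0485, range over the alternatives 0.0485 to 0.399). The mitochondrial iron importers Slc25a28 and Slc25a37, the transporter Abcb10 and its relative Abcb8, named after their values were seen, were the others. Slc25a28 had the largest difference of these, a log2 difference of -0.77 (adjusted p = 0.121). Pcbp2, the brightest of the list and an iron chaperone that loads ferritin, was at -0.03 (adjusted p = 0.948), and Ncoa4, the receptor that carries ferritin to lysosomes and also named after its values were seen, at 0.05 (adjusted p = 0.918).

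Heme synthesis, transport and breakdown had 17 tested genes, 0 of which passed and 1 of which had an unadjusted p under 0.05, with a median log2 difference of -0.04. Pgrmc1, a heme-binding membrane protein, had both the smallest adjusted p and the highest signal, 1911 ± 79.6 in hypoxia against 1434 ± 204 (log2 difference 0.42, adjusted p = 0.229). Hmox2, the constitutive heme oxygenase, named after its values were seen, was at -0.04 (adjusted p = 0.935). Of 20 genes of iron-sulfur cluster assembly, 0 passed and 3 had an unadjusted p under 0.05 (median -0.06). Among all 11332 genes, 1409 had an unadjusted p under 0.05. Without overlap, 4 of these 20 were lower in hypoxia, or 20% (9.91% of all genes), and 0 were higher (8.16% of all genes). In the heme list 1 gene was lower and 1 higher without overlap, or 5.88% each. The lists were not tested against other genes. After median centring the median was 0.07 for the heme list, 0.05 for the iron-sulfur list and 0.07 for all genes. Nfs1, the cysteine desulfurase that supplies the sulfur, had a log2 difference of -0.50 (adjusted p = 0.305), and Ciao2b of the cytosolic assembly machinery one of 0.11 (adjusted p = 0.72). Among 3 tested transcripts of other genes with an iron-responsive element, 0 passed and 1 had an unadjusted p under 0.05. That was Epas1, a hypoxia-inducible factor subunit, at a log2 difference of -0.58 on low signals of 33.8 ± 3.75 against 50.5 ± 6.62 (adjusted p = 0.412), while Cdc42bpa was at 0.03 (adjusted p = 0.967).

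**Figure D4:**
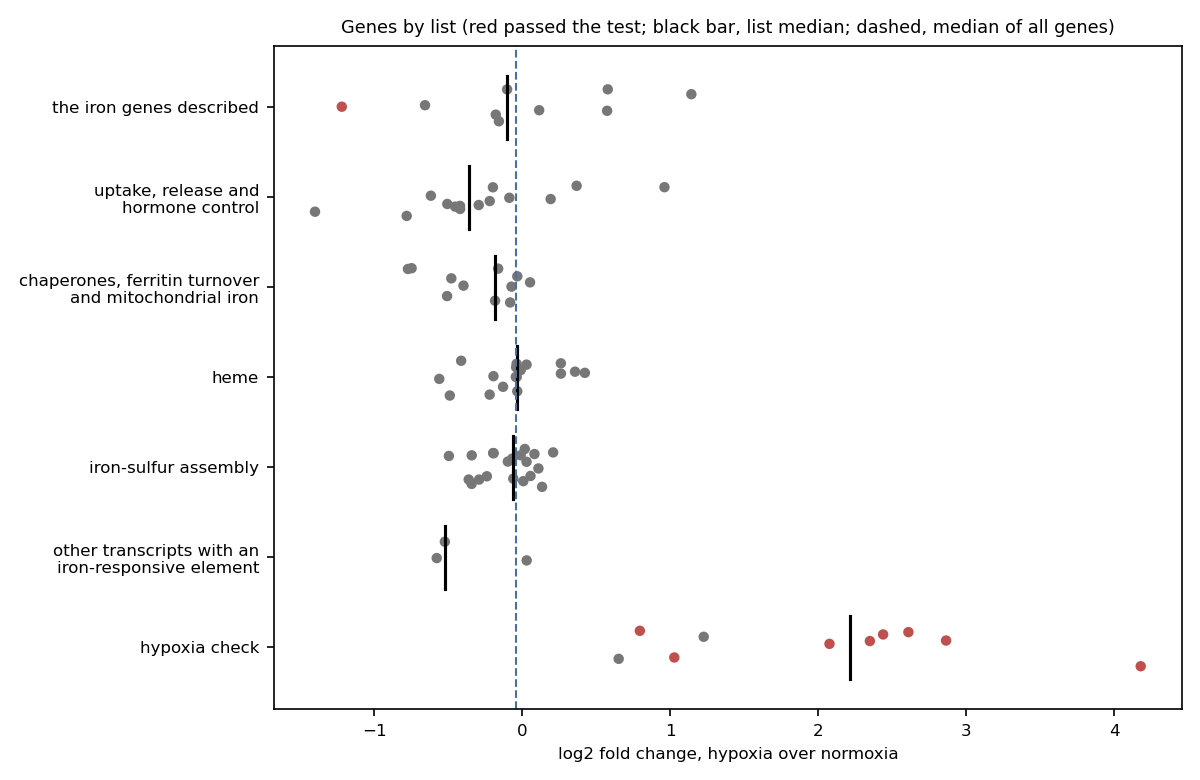
Log2 fold change of hypoxia over normoxia (x axis) for the representative probe set of each tested gene, by list (y axis; vertical scatter within a list has no meaning); red passed the test, the black bar is the list's median and the dashed line the median of all genes, -0.04. Slc40a1 is the only red point among the iron and heme genes, and 8 of 10 genes of the hypoxia list are red.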

How the data were processed

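The authors deposited 1 intensity per probe set and array on a linear scale, made with MAS5 per the submitters' processing notes (version and settings not given in the sources used here). Means after trimming 2% at each end were nearly equal over the 6 arrays, so no further scaling was applied. Of the 15 pairs of arrays, 0 were identical. There were 10 values of 0, which took the lowest nonzero signal, 0.1, before log2 transformation. MAS5 signals near background vary widely, and 3 arrays a condition limit the precision. Testing used limma 3.58.1 under R 4.3.3 (two-sided, moderated variances that follow the mean signal, no covariates), with Benjamini-Hochberg adjustment over the 22518 probe sets kept. SE and 95% intervals are moderated. An exact permutation test of 3 against 3 arrays cannot give a p under 0.1. The procedure was tested on simulated data.

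By the platform annotation 34945 probe sets had 1 gene, 932 several and 9160 none. Gene IDs of 204 single-gene probe sets had no match in RefSeq of GRCm38.p6, and 0 symbols changed in the others. Promoter sequences are from RefSeq.

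Members and lists were chosen with earlier results of these data known. Named beside the members were, from each list, genes that passed (at most 3) or else the gene with the smallest adjusted p, and the brightest that did not pass; the 3 genes nearest in pattern to a called member; and up to 3 called genes of the hypoxia list. Alternatives were other normalizations, an offset, other filters and variance models, array weights, a replicate block, the mean over probe sets, dropping probe sets named x_at or s_at, and leaving out each array.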

Additional observations from a re-analysis of the deposited data

How the results depend on the processing

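The total of called probe sets was 137; it was 18 without the trend, 437 with array weights and 39 to 200 with 1 array left out. Called probe sets of the iron genes numbered 1; they were 2 with the offset, no filter, the 75th percentile filter or robust eBayes, 0 without the trend, 4 with array weights and 0 to 2 with 1 array left out. The 1 called iron gene became 0 without the trend, 2 with array weights and 0 to 2 with 1 array left out, the 0 being without normoxia replicate 3. Of the further iron genes, 2 were called with array weights (Fbxl5 and Slc25a28) and 0 otherwise. Of the hypoxia list, 3 rather than 8 passed without the trend. Signs of log2 differences turned only for probe sets that passed under no setting run. Ftl1 with Ftl1-ps2 at 1422302_s_at was at -0.028 with quantile normalization, -0.039 with cyclic loess, -0.063 with array weights and -0.051 to 0.18 with 1 array left out. Median centring gave 0.093 for Fth1 1427021_s_at, 0.0084 for Slc11a2 1452078_a_at, 0.012 for Cp 1417497_at and 0.077 for Pcbp2; Cp 1417497_at was also at 0.014 with cyclic loess and 0.35 with array weights, where Cdc42bpa was at -0.082. With 1 array left out, the ranges were -0.096 to 0.057 for Fth1 1427021_s_at, -0.21 to 0.14 for Slc11a2 1417584_at, -0.65 to 0.19 for Cp 1417497_at, -0.0032 to 0.71 for Cp 1455393_at, -0.18 to 0.059 for Pcbp2 and -0.11 to 0.17 for Cdc42bpa. The cause of these changes was not tested.

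Same-numbered arrays deviated from their condition means with correlations of -0.08, 0.21 and -0.14. Hypoxia replicate 1 correlated best with normoxia replicate 2 (0.07), and the largest correlation was of hypoxia replicate 3 with normoxia replicate 1 (0.32). The deviations were centred within each condition of 3 arrays, which ties them together, so these values cannot exclude pairing. In the main fit the numbers were not taken as pairs. A fit with the replicate number as a block called 105 probe sets and 1 iron gene, Slc40a1 (adjusted p = 0.0311).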

Other observations

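Hmox1 is a target of the transcription factor NRF2 and of the heme-sensing repressor BACH1, so 14 genes of that axis were listed after the values of Hmox1 had been seen. Of 12 tested with limma, 0 passed and 3 had an unadjusted p under 0.05 (1409 of all 11332 genes), with 6 above and 6 below 0 (median log2 difference -0.01). Nfe2l2, which encodes NRF2, had signals of 401 ± 25.8 in hypoxia and 314 ± 18.6 in normoxia (log2 difference 0.35, adjusted p = 0.379). Nqo1, a quinone reductase and classical NRF2 target, was at -0.57 (64.9 ± 14.1 against 95.5 ± 12.2, adjusted p = 0.379). Maff, a small partner of both factors, had low signals of 42.5, 34.4 and 42.2 in hypoxia and of 5.40, 26.3 and 5.30 in normoxia (adjusted p = 0.212). It exceeded the filter through its hypoxic signals, with 2 of 3 normoxia arrays under the level of 14.1, so no fold is given. Bach1 was at 0.09 and Keap1, which marks NRF2 for degradation, at -0.33, while Gclc and Txnrd1 were at 0.0079 and 0.00048.

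Oxygen-binding and electron-carrying heme proteins, a list of 10 genes also added later, had 7 tested, of which 0 passed and 1 had an unadjusted p under 0.05. That was Cyb5b, a mitochondrial outer membrane cytochrome, with tightly spaced signals of 1312 ± 31.5 in hypoxia and 1636 ± 4.98 in normoxia (log2 difference -0.32, adjusted p = 0.251). Myoglobin, Mb, had widely spread signals of 219 ± 125 and 196 ± 77.0 (log2 difference 0.11, adjusted p = 0.939). Cytochrome c, Cycs, was at -0.12 (adjusted p = 0.62).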
